A study of Homo sapiens with 6 samples.

Results

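The 10 genes described here carry out or control antigen presentation by major histocompatibility complex (MHC) class II molecules: *HLA-DRA*, *HLA-DRB1*, *HLA-DPA1*, *HLA-DPB1*, *HLA-DQA1*, *HLA-DQB1*, *HLA-DMA*, *HLA-DMB*, *CD74* and *CIITA*. They were chosen by name, with earlier results of these data known. All 10 were found by symbol among the 20348 genes of the deposited table. RNA-seq was made from MV4-11, an established human acute myeloid leukemia (AML) cell line. The Control group held 3 untreated samples, and the WNK463 group held 3 samples treated for 48 h with 1 μM WNK463, which inhibits WNK kinases. No genetic change separates the groups, and both are the same cell line. The labels do not say whether the samples came from separate cultures, so p-values measure the spread between these samples, which may be technical.

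Class II molecules are pairs of an α and a β chain that display peptides from the endosome to CD4 T cells. The invariant chain, encoded by *CD74*, fills the groove of new pairs until endosomal proteases remove it, and HLA-DM then exchanges the remaining fragment for a peptide. *CIITA* encodes the coactivator that switches these genes on, and monocytic and other antigen presenting cells are known for their use of this program.

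Total counts per sample lay between 14915745 and 17411780. A count of 0 allows a level of up to 0.206 CPM (counts per 1000000 of the normalized library), taken as 3 counts in the sample with the highest such limit. This limit covers counting error only. Of 10 markers of the line and of AML, 8 were high enough to be tested, of which 5 rose and 3 fell after WNK463. *FLT3* stood at 369 ± 18.5 CPM in Control (SD, n = 3) and *HOXA9* at 53.5 ± 2.34. The rises were 1.25 (*ITGAM*), 0.72 (*HOXA9*), 0.66 (*CD4*), 0.47 (*KIT*) and 0.33 (*MEIS1*) on the log2 scale, and the log2 fold changes of those that fell were -2.50 (*MPO*), -0.38 (*CD33*) and -0.20 (*FLT3*). *CD34* had at most 1 count and *CD14* at most 10 counts in any sample. Replicates of a typical gene varied by 5.21% beyond counting error (edgeR). With edgeR, 70.8% of the 11973 genes tested passed an adjusted p of 0.05 after WNK463, 35.5% of them all as higher and 35.3% as lower, so a call alone is common in these data.

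After WNK463, *HLA-DMB*, *CIITA*, *CD74* and *HLA-DRA* rose, and the other members did not pass the test in either direction. Of the 10 members, 9 were tested, and 4 of these 9 were called higher, against 35.5% of all tested genes. *HLA-DQA1* was below the filter on low counts. One of the 9, *HLA-DMB*, passed with a log2 fold change of at least 1, against 9.62% of all tested genes, and 0 fell by that much, against 5.55%. The groups did not overlap in CPM for 4 members that were higher and for *HLA-DRB1*, which was lower, against 37.1% of tested genes higher and 73.5% in either direction. The median log2 fold change over the 9 tested members was 0.33, beside 0.02 over all tested genes. *HLA-DMB* passed the filter through the WNK463 samples alone, so a difference in this gene was built into its being tested. Leaving it aside, 3 members were called higher, and the median above still includes it. With 10 counts required in every sample *HLA-DMB* was not tested. There, 3 of 8 members were called higher, beside 3995 of 11150 genes, and no difference from this share was tested.

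**Figure D1:**
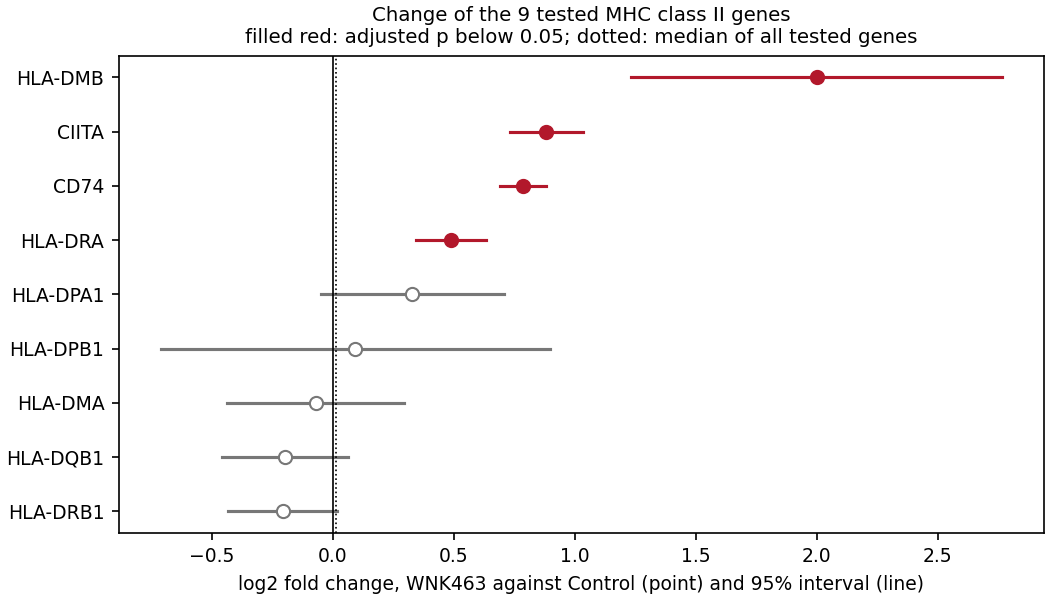
Log2 fold change of WNK463 against Control for the 9 tested MHC class II genes (points, horizontal axis), with 95% intervals from edgeR (lines). Filled red points passed an adjusted p of 0.05: *HLA-DMB* at 2.00, *CIITA* at 0.88, *CD74* at 0.79 and *HLA-DRA* at 0.49, while the intervals of the other 5 include 0.

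*CIITA* (ENSG00000179583), the coactivator of class II promoters, occupies bases 10866222 to 10943021 of chromosome 16 in GRCh38, plus strand. Its TPM values (transcripts per 1000000, a level per transcript length) were 7.28, 8.10 and 9.54 in Control and 21.3, 21.9 and 23.8 with WNK463. Every WNK463 sample lay above every Control sample. On the count scale Control held 32.0 ± 2.55 CPM and WNK463 58.9 ± 3.04 (SD, n = 3 each). The counts gave a log2 fold change of 0.88 with a standard error of 0.07 (edgeR adjusted p = 5.2e-09), a 1.84-fold rise with a 95% interval of 1.66 to 2.05. On the TPM scale the log2 difference was larger, 1.33 with a pseudocount of 1 and 1.43 with a pseudocount of 0.1 (limma).

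The difference between the scales was followed through the counts per TPM, which scale with the estimated length of the transcripts in use. Relative to the Control mean, this quantity for *CIITA* was 1.19, 1.02 and 0.787 in Control and 0.816, 0.823 and 0.676 with WNK463. The groups overlapped, and the exact two-sided permutation test gave p = 0.30 (0.54 after Benjamini-Hochberg adjustment over 9 members). The log2 difference between the groups was -0.36. A difference at least as large in size was found in 1.65% of the 9938 genes with enough counts for this measure. The measure was chosen after the values were seen. *CIITA* is known to start from alternative promoters with different first exons, and gene-level counts do not separate them. The annotated genes *DEXI* and AC133065.1 on the opposite strand, and AC133065.3 on the same strand, overlap the *CIITA* gene. Whether the counting used strand is not given in the sources used here.

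*CD74* (ENSG00000019582) was the highest member in both groups. The gene occupies bases 150401637 to 150412929 of chromosome 5, minus strand. TPM values were 564, 563 and 555 in Control and 1143, 1058 and 1070.3 with WNK463. The groups were far apart, with little spread inside each. *CD74* rose by 0.79 on the log2 scale with a standard error of 0.05 (edgeR adjusted p = 5.8e-11), a 1.72-fold rise with a 95% interval of 1.61 to 1.84. *CD74* made up 83.6% of the summed TPM of the 10 members in Control and 87.1% with WNK463, as a mean over the samples.

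*HLA-DRA* (ENSG00000204287) encodes the α chain of HLA-DR, which varies little between people. The gene occupies bases 32439842 to 32445046 of chromosome 6, plus strand. TPM values were 51.8, 48.1 and 52.2 in Control and 78.8, 85.6 and 80.2 with WNK463, with no overlap. The rise was 0.49 on the log2 scale with a standard error of 0.07 (edgeR adjusted p = 4.7e-06), a 1.40-fold rise with a 95% interval of 1.27 to 1.55.

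*HLA-DRB1* (ENSG00000196126), at bases 32578769 to 32589848 of chromosome 6 (minus strand), encodes the β chain that pairs with the *HLA-DRA* product. Its TPM values were 21.3, 18.2 and 20.7 in Control and 19.7, 20.3 and 19.4 with WNK463, with overlap between the groups. In CPM the WNK463 samples all lay below Control, at 11.9 ± 0.196 against 13.7 ± 1.27 (SD, n = 3 each). This was a log2 fold change of -0.21 with a 95% interval of -0.43 to 0.02 (adjusted p = 0.095 from edgeR). Without Control replicate 2 it was -0.29 and passed (adjusted p = 0.037). *HLA-DRB5*, a close copy of *HLA-DRB1*, had 21, 15 and 23 counts in Control and 13, 14 and 13 with WNK463 (adjusted p = 0.12 from edgeR). With the counts of the copies in the table summed, the log2 fold change was -0.24 (adjusted p = 0.053). Reads that fit both copies make the split between them uncertain, and how far the alleles of this line differ from the reference genes was not tested.

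*HLA-DPA1* (ENSG00000231389) and *HLA-DPB1* (ENSG00000223865) encode the chains of HLA-DP. They lie on opposite strands of chromosome 6, from 33064569 to 33080775 on the minus strand and from 33075926 to 33087201 on the plus strand, and their annotated spans overlap. *HLA-DPA1* had TPM values of 5.44, 5.38 and 8.93 in Control and 9.26, 10.1 and 12.9 with WNK463. These did not overlap, although Control replicate 3 came close to the lowest WNK463 sample. In CPM the groups overlapped, and the log2 fold change was 0.33 with a 95% interval of -0.05 to 0.71 (adjusted p = 0.11 from edgeR). The gene passed with scaling by total counts (0.48, adjusted p = 0.026), on both TPM scales (0.65 and 0.72, adjusted p = 0.013 each) and without Control replicate 3 (0.51, adjusted p = 0.025).

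*HLA-DPB1* was low, with TPM values of 1.73, 1.60 and 0.703 in Control and 1.76, 1.67 and 0.917 with WNK463. The groups overlapped in full, and 10 to 24 counts per sample left a wide 95% interval of -0.71 to 0.90 around a log2 fold change of 0.09 (adjusted p = 0.83 from edgeR). Its sign turned without Control replicate 3 (-0.21) and without WNK463 replicate 1 (-0.11).

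*HLA-DQB1* (ENSG00000179344), the β chain of HLA-DQ, occupies bases 32659467 to 32668383 of chromosome 6, minus strand. It had TPM values of 13.1, 12.9 and 11.5 in Control and 11.2, 13.6 and 11.4 with WNK463. The groups overlapped, and the log2 fold change was -0.20 with a 95% interval of -0.46 to 0.06 (adjusted p = 0.16 from edgeR). The α chain gene *HLA-DQA1* (ENSG00000196735), at bases 32628179 to 32647062 of the same chromosome (plus strand), was near the limit of detection. It had 3, 1 and 0 counts in Control and 6, 3 and 2 with WNK463, and no fold is given. A gap between *HLA-DQB1* and *HLA-DQA1* was thus present in every sample, and the effect of allele differences from the reference on it was not tested.

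*HLA-DMB* (ENSG00000242574) and *HLA-DMA* (ENSG00000204257) encode the chains of HLA-DM, the peptide exchange factor. They lie side by side on the minus strand of chromosome 6, from 32934629 to 32941070 and from 32948613 to 32969094. *HLA-DMB* had 7, 8 and 7 counts in Control and 24, 37 and 32 with WNK463, or TPM values of 0.580, 0.762 and 0.591 against 2.28, 3.42 and 3.20. All WNK463 samples were above all Control samples, and they alone brought the gene past the filter. It rose by 2.00 on the log2 scale with a standard error of 0.36 (edgeR adjusted p = 9.0e-05), a 4.0-fold rise with a 95% interval of 2.35 to 6.80. With the larger pseudocount of 1 on the TPM scale the log2 difference of this low gene was 1.26.

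*HLA-DMA* had TPM values of 8.91, 11.2 and 8.81 in Control and 9.04, 10.8 and 11.4 with WNK463. The groups overlapped. The log2 fold change was -0.07 with a 95% interval of -0.43 to 0.30 (adjusted p = 0.73 from edgeR), and its sign turned with total counts (0.082), on the TPM scales (0.10 and 0.11) and without Control replicate 2 (0.044) or WNK463 replicate 1 (0.013). *HLA-DMB* thus rose beside a partner gene for which no change was detected. The annotated transcript AL645941.2 overlaps both genes on their strand, and *BRD2* overlaps *HLA-DMA* on the other, so shared reads could be split between them.

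**Figure D2:**
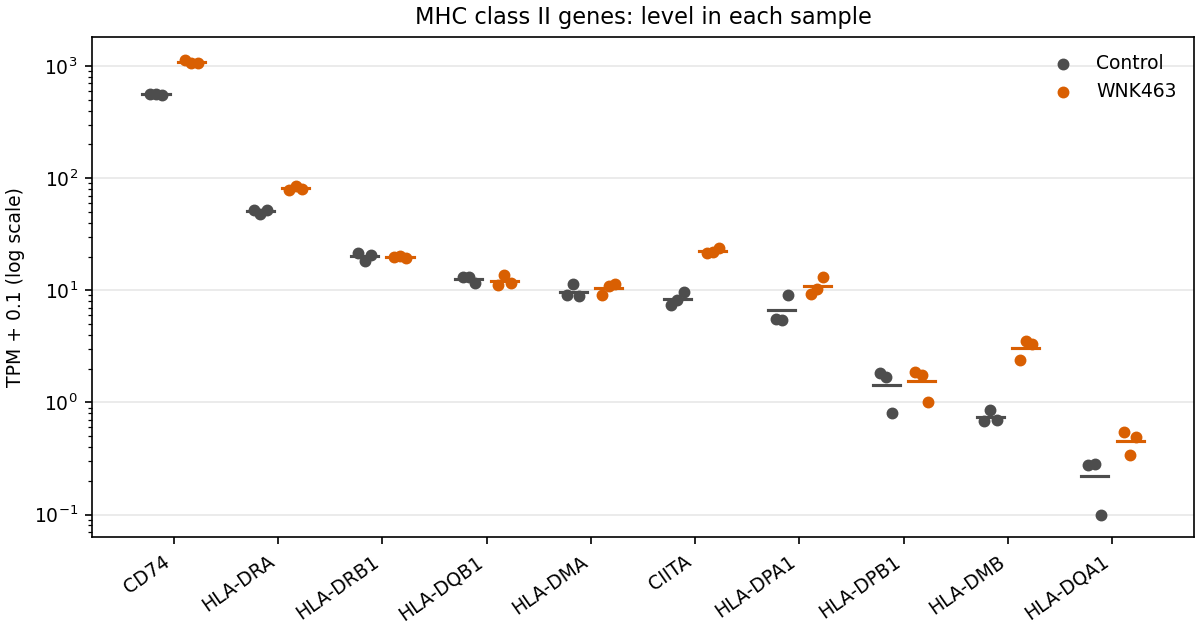
TPM in each sample (points; vertical axis, TPM + 0.1 on a log scale) for the 10 MHC class II genes, with group means as lines. *CD74* stands at 555 to 564 TPM in Control and 1058 to 1143 with WNK463, *CIITA* at 7.28 to 9.54 and 21.3 to 23.8, and *HLA-DQA1* below 0.5 in all samples.

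By mean TPM, the order in Control was *CD74*, *HLA-DRA*, *HLA-DRB1*, *HLA-DQB1*, *HLA-DMA*, *CIITA*, *HLA-DPA1*, *HLA-DPB1*, *HLA-DMB* and *HLA-DQA1*. The ranges of *HLA-DMA* and *CIITA*, of *CIITA* and *HLA-DPA1*, and of *HLA-DPB1* and *HLA-DMB* overlapped. With WNK463 *CIITA* moved to rank 3, and *HLA-DMB* stood above *HLA-DPB1* with no overlap. The rank of *CIITA* rests on TPM, where its log2 difference was 1.33 or 1.43 by pseudocount, against 0.88 from counts. The 6 classical chain genes summed to 91.4 ± 4.24 TPM in the Control samples and to 126 ± 5.24 in the treated ones (SD, n = 3 each). *HLA-DRA* alone gave 55.5% of that sum in Control and 64.7% with WNK463.

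Ratios within a sample do not depend on the scaling between samples, and 5 of 6 planned ratios could be formed. With 3 samples against 3, the smallest p of the exact two-sided permutation test is 0.10, which is 0.17 after adjustment when 3 of the 5 reach it. The TPM ratio of *HLA-DRA* to *HLA-DRB1* was 2.43, 2.64 and 2.53 in Control and 4.01, 4.21 and 4.14 with WNK463. This ratio was higher in every WNK463 sample than in any Control sample (p = 0.10, exact permutation test). The other HLA-DR β chain genes *HLA-DRB3* and *HLA-DRB4* were not among the deposited genes, so the ratio covers *HLA-DRB1* alone. The ratio of *HLA-DMA* to *HLA-DMB* was 15.4, 14.7 and 14.9 in Control and 3.96, 3.16 and 3.55 with WNK463 (p = 0.10, exact permutation test). The 2 chains of HLA-DM were thus closer in RNA level in the treated samples. This difference rests on *HLA-DMB*, which had 7 to 8 counts in Control. That gene passed the filter of the main fit through the WNK463 samples alone.

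The ratio of *CD74* to *HLA-DRA* was 10.9, 11.7 and 10.6 in Control and 14.5, 12.4 and 13.4 with WNK463, again without overlap (p = 0.10, exact permutation test). The ratio of *HLA-DPA1* to *HLA-DRA* overlapped between the groups, with a log2 difference of 0.05 (p = 0.80, exact permutation test). The ratio of *HLA-DPA1* to *HLA-DPB1* also overlapped (p = 0.50, exact permutation test). Replicate 3 of each group held the highest value, 12.7 in Control and 14.1 with WNK463, where the other samples ran from 3.14 to 6.04.

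**Figure D3:**
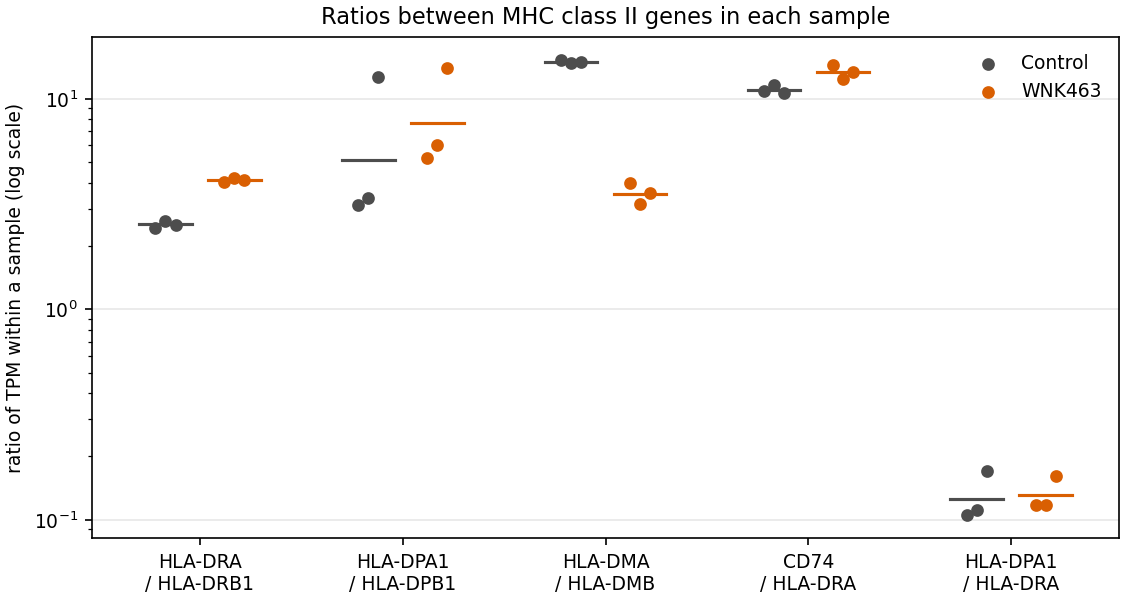
Ratio of TPM between 2 MHC class II genes within each sample (points; log scale), with geometric means as lines. *HLA-DRA* to *HLA-DRB1* moved from 2.43 to 2.64 in Control to 4.01 to 4.21 with WNK463, and *HLA-DMA* to *HLA-DMB* from 14.7 to 15.4 down to 3.16 to 3.96. *HLA-DMB* had 7 to 8 counts in Control and passed the filter through the WNK463 samples alone.

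Scaling mattered for the members near 0. Using total counts rather than TMM factors shifted the median over all tested genes by 0.15 on the log2 scale and moved the share of higher genes among all calls from 50.2% to 63.9%. *CD74*, *CIITA* and *HLA-DRA* passed as higher in all 14 alternatives run for each, with log2 values of 0.75 to 0.96, 0.81 to 1.43 and 0.44 to 0.68. *HLA-DMB* passed in all 13 alternatives that could test it, and it could not be tested where 10 counts were required in every sample. Where the filter of the main fit was kept, it was tested through the WNK463 samples alone, so a difference was built in there. With no filter on low counts its log2 fold change was 1.98. *HLA-DRB1* and *HLA-DQB1* stayed below 0 throughout, from -0.29 to -0.02 and from -0.31 to -0.05.

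**Figure D4:**
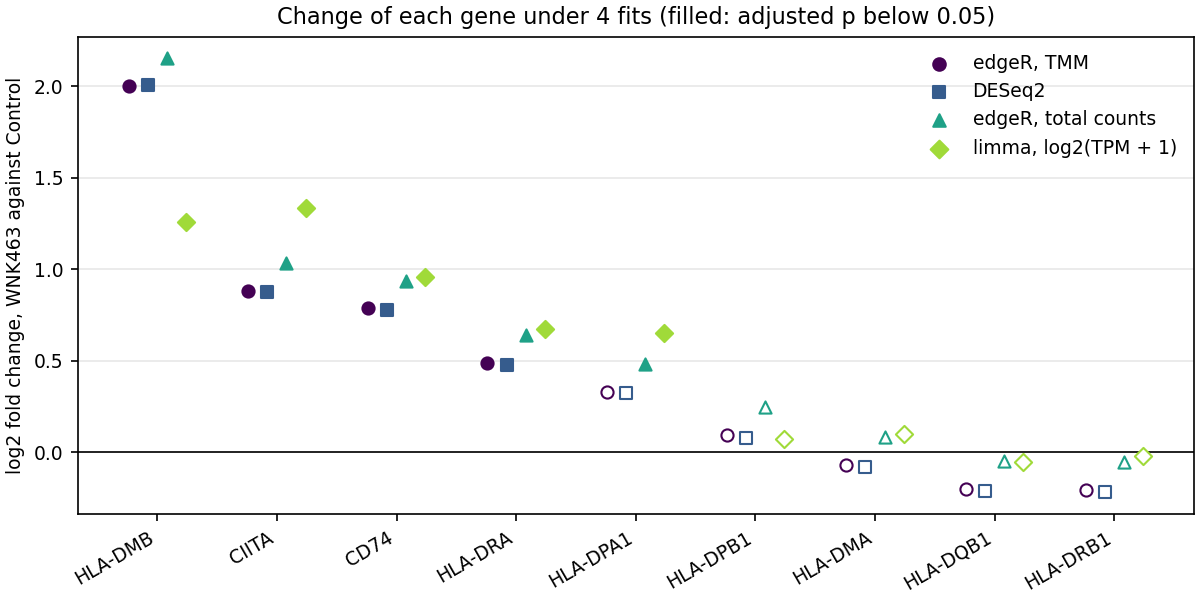
Log2 fold change of each tested MHC class II gene under 4 fits (edgeR with TMM, DESeq2, edgeR with total counts, limma on log2(TPM + 1)). Filled symbols passed an adjusted p of 0.05; *HLA-DPA1* is filled with total counts (0.48) and TPM (0.65) only, and *HLA-DMA* changes sign.

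Class II promoters are known for an X box bound by the RFX complex and a Y box, an inverted CCAAT element bound by NF-Y, at a fixed spacing. RefSeq promoters were matched for 8 of the 10 members, and *HLA-DRA* and *CIITA* had no entry. The 250 bases before each start were searched for AGNNAC followed directly by NGATG (part of the X box) and for ATTGG or CCAAT (the Y box core), on both strands. This longer motif was present in *HLA-DRB1*, *HLA-DQB1*, *HLA-DMA* and *HLA-DMB*, and in 0.692% of all 35116 promoters. AGNNAC alone, followed on the gene's strand by ATTGG or CCAAT 20 to 40 bases further on, was present in *HLA-DRB1*, *HLA-DQA1*, *HLA-DQB1*, *HLA-DMA* and *CD74*, and in 3.00% of all promoters. The letters and spacing were chosen after these promoters were seen. AGNNAC overlaps the longer motif, and either strand of it was in 80.8% of promoters, against 32.0% for the Y box core alone. The following windows show these letters in 2 members that rose and 3 that did not pass the test. They lie in no annotated exon, and capitals mark the X box letters (the longer motif, or AGNNAC where that is absent) and the Y box core.
*CD74* (rose), chr5:150412944-150413006, minus strand: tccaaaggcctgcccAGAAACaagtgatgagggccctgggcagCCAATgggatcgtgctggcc
*HLA-DMB* (rose), chr6:32941071-32941131, minus strand: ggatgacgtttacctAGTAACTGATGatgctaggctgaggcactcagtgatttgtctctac
*HLA-DRB1*, chr6:32589875-32589942, minus strand: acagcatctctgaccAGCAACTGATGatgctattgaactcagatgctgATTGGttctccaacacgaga
*HLA-DQB1*, chr6:32666726-32666793, minus strand: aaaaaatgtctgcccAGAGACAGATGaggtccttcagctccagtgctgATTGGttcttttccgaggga
*HLA-DMA*, chr6:32953157-32953225, minus strand: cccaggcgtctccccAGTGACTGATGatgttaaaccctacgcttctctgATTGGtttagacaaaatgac
Sequences are from RefSeq on GRCh38.p14. The X box letters stood 33 bases before the Y box core in *HLA-DRB1* and *HLA-DQB1*, 34 bases in *HLA-DMA* and 28 bases in *CD74*. The *HLA-DMB* promoter held no Y box core at 20 to 40 bases from its X box letters. Members with and without a detected change thus shared some of these letters. *CD74* held the spaced pair without the longer motif, and *HLA-DMB* the longer motif without the spaced pair. *HLA-DRB1*, *HLA-DQB1* and *HLA-DMA* held both, and *HLA-DPA1* and *HLA-DPB1* held neither. A match is a description, not evidence of binding.

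The factors that work with CIITA at these promoters did not move in 1 direction. Of 12 such genes, all tested, 3 rose and 5 fell at an adjusted p of 0.05, and with total counts 3 rose and 3 fell. Among all 11973 tested genes, 35.5% were called higher and 35.3% lower. With total counts 5525 were called higher and 3123 lower. The counts for this list and the lists below stand beside these shares, and no difference from them was tested. The median log2 fold change of the 12 promoter factors was -0.08. It turned to 0.08 with total counts, beside 0.17 over all tested genes, and to 0.04 on both TPM scales. *RFXANK* and *RFXAP*, subunits of the RFX complex, had log2 fold changes of 0.33 and -0.49 (adjusted p = 6.3e-05 and 6.2e-04 from edgeR). *RFX5*, the third subunit, did not pass (-0.03), nor did *NFYB* (-0.06), *NFYC* (-0.06) or *CREBBP* (-0.09). *SMARCA4*, a chromatin remodelling ATPase, fell from 566 ± 20.4 to 356 ± 10.8 CPM, and the coactivator gene *EP300* fell with a log2 fold change of -0.30. *KAT2B*, an acetyltransferase gene, rose by 0.49 on the log2 scale.

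Interferon γ is the best known inducer of *CIITA*. Of 10 genes of this route, 9 were tested, 6 rose and 2 fell, with a median of 0.21. With total counts 6 rose and 1 fell, on the TPM scales 6 rose and 0 fell, and 5 genes were called without Control replicate 3 or without WNK463 replicate 3. *IFNG* itself had 0 counts in all 6 samples. *JAK2*, a kinase of the receptor, rose from 38.5 ± 3.83 to 89.5 ± 5.03 CPM (SD, n = 3 each), and the receptor genes *IFNGR1* and *IFNGR2* rose with log2 fold changes of 0.94 and 0.24. *PTPN2*, a phosphatase gene, rose by 0.41 on the log2 scale, and *SOCS1* did not pass (-0.38, adjusted p = 0.25 from edgeR).

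Among 10 repressors of *CIITA* and regulators of myeloid cells, all tested, 2 rose and 6 fell, and on the TPM scales 4 rose and 5 fell. *PRDM1*, a repressor of *CIITA* in plasma cells, rose from 10.3 ± 0.657 to 33.98 ± 2.18 CPM (SD, n = 3 each). *BCL6* rose with a log2 fold change of 1.84. *IRF8*, a transcription factor of monocytes and dendritic cells, fell from 782 ± 10.7 to 465 ± 6.32 CPM. *IRF4* and *EZH2*, a histone methyltransferase gene, fell with log2 fold changes of -0.81 and -0.60. *SPI1*, the gene of the myeloid factor PU.1, did not pass (0.00), nor did *HDAC2* (-0.03).

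Of 12 genes of endosomal antigen processing, 9 were tested, 5 rose and 2 fell, and with total counts 7 rose and 1 fell. *IFI30*, which reduces disulphide bonds of antigens, rose from 43.6 ± 2.01 to 90.4 ± 9.70 CPM. *CTSS*, the protease known for the last cut of the invariant chain, fell from 41.6 ± 1.09 to 22.9 ± 1.03 CPM (log2 fold change -0.86, adjusted p = 7.9e-09 from edgeR). *SPPL2A*, which cuts the membrane stub of the invariant chain, rose by 0.49 on the log2 scale. The protease genes *CTSD* and *CTSH* rose with log2 fold changes of 1.79 and 1.53. *CTSB* (0.04) and *CST3*, which encodes a cathepsin inhibitor, did not pass. *CTSL*, the other known invariant chain protease, had at most 7 counts in any sample.

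Of 15 genes of class II turnover, costimulation and CD74 signalling, 11 were tested, 8 rose and 3 fell, with the same split under total counts. *MARCHF8*, a ubiquitin ligase that removes class II molecules from the surface, rose from 19.1 ± 1.43 to 30.7 ± 2.61 CPM. *ICAM1*, an adhesion molecule for T cells, rose from 28.3 ± 1.23 to 87.2 ± 2.30 CPM. CD74 is also a receptor for the cytokine MIF, with CD44 and CXCR4 as partners. *MIF* fell from 159 ± 4.81 to 83.1 ± 6.22 CPM and *CXCR4* from 149 ± 6.80 to 73.6 ± 4.71, while *CD44* rose from 575 ± 13.1 to 811 ± 34.6 (SD, n = 3 each). The other genes that rose were *MARCHF1*, *CD83*, *CD86*, *CD40* and *CD58*, and the other that fell was *ICOSLG*. *CD40*, with 5 to 6 counts in Control, was tested through the WNK463 samples alone, so a difference was built in, and 7 others rose. *CD80*, *CD274*, *PDCD1LG2* and *LAG3* were below the filter.

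**Figure D5:**
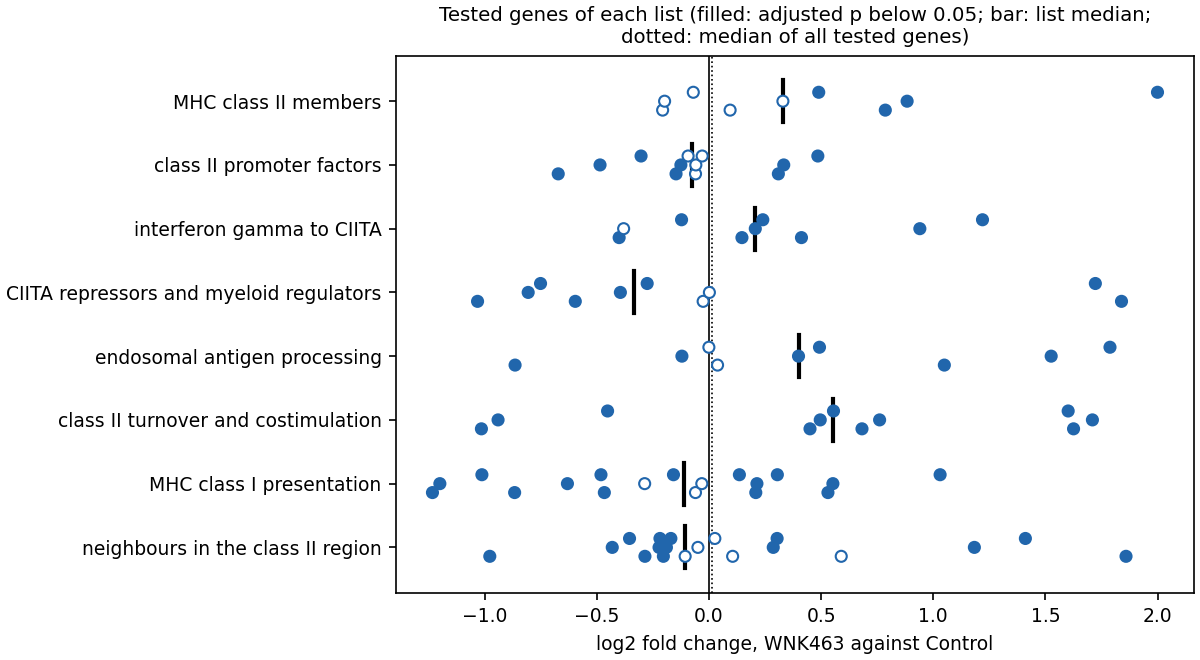
Log2 fold change of WNK463 against Control (horizontal axis) for the tested genes of each list, with filled points at an adjusted p below 0.05 and a black bar at the list median. The median of the class II members, *HLA-DMB* included, is 0.33, that of class II promoter factors -0.08 and that of MHC class I presentation -0.11. With total counts these medians are 0.48, 0.08 and 0.04, beside 0.17 over all tested genes.

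MHC class I genes and genomic neighbours were set beside the members. Of 18 class I genes, all tested, 7 rose and 8 fell, with a median log2 fold change of -0.11 that turned to 0.04 with total counts. *HLA-E* rose from 348 ± 17.4 to 710.3 ± 22.2 CPM (SD, n = 3 each), while *CALR*, *PDIA3*, *TAP2* and *PSMB8*, which serve peptide loading, transport and cleavage, fell with log2 fold changes of -1.20, -0.63, -1.01 and -0.87. *NLRC5*, the class I counterpart of *CIITA*, did not pass (-0.03), nor did *HLA-F* (-0.29) or *CANX* (-0.06). Of 21 neighbours in or near the class II region, 19 were tested, 5 rose and 9 fell, and with total counts 7 rose and 4 fell. *COL11A2*, *B3GALT4* and *GPSM3* rose with log2 fold changes of 1.86, 1.18 and 0.29, and *WDR46* and *AGPAT1* fell with -0.43 and -0.29. *NOTCH4* (0.59), *RNF5* (-0.11), *RXRB* (0.11) and *RGL2* (0.03) did not pass. *BRD2*, which lies between *HLA-DRA* and *HLA-DPB1*, did not pass either, with a log2 fold change of -0.05 (adjusted p = 0.34 from edgeR). No test between lists was run.

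Other class II genes were close to 0. *HLA-DOB*, whose product with that of *HLA-DOA* restrains HLA-DM, had 3 to 6 counts in Control and 5 to 10 with WNK463, and *HLA-DOA* had at most 1. *HLA-DQA2* had 0 counts in all samples, and *HLA-DQB2* had at most 4.

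Markers of other immune cell types were measured in the same libraries, and their part in the members' rise was not tested. In bulk samples, fewer cells of a type and less RNA per cell cannot be told apart. Of 12 macrophage markers, 8 were tested and 6 were called higher. *C1QB*, *C1QC* and *APOE* were tested through the WNK463 samples alone, so their difference was built in, and the other 3 that rose were *C1QA*, *FOLR2* and *TREM2*. With 10 counts required in every sample 2 were called. The summed level of the 12 was 9.27 to 11.8 CPM in Control and 31.6 to 33.1 with WNK463. Of that list *C1QA* was highest with WNK463 (13.1 ± 1.12 CPM), up from 0.985 ± 0.627. *C1QC* went from 0.152 ± 0.110 to 3.62 ± 0.211 CPM, *FOLR2* from 0.820 ± 0.0839 to 2.32 ± 0.433 and *TREM2* from 5.47 ± 0.970 to 8.96 ± 0.160. *C1QB* had 0 to 1 counts in Control and 11 to 23 with WNK463. *MARCO* and *SPP1* did not pass (-0.27 and -1.18 on the log2 scale), and *CD163* and *MRC1* had at most 1 count in any sample. Of 13 dendritic cell markers, 4 were tested, 2 rose, with log2 fold changes of 0.61 (*CLEC10A*) and 0.74 (*ZBTB46*), and *FCER1A* did not pass (-0.63). *BATF3* was called lower (-1.16) but was tested through the Control samples alone. Summed over the 13 markers, the level was 40.6 to 45.8 CPM in Control and 63.4 to 67.1 with WNK463. *CLEC9A* and *XCR1* had 0 counts in all samples. Of 8 B cell markers, 3 were tested: *PAX5* rose from 1.03 ± 0.111 to 2.00 ± 0.0750 CPM, *BANK1* fell (-0.92) and *TNFRSF13C* did not pass (0.14). The B cell sum was 4.15 to 5.97 CPM in Control and 5.07 to 7.28 with WNK463, and *MS4A1* had 0 counts in all samples. Of 8 T and NK cell markers, *NKG7* alone was tested, and it rose from 11.7 ± 1.82 to 16.1 ± 0.419 CPM. That sum was 10.4 to 13.9 CPM in Control and 16.05 to 17.2 with WNK463, and *CD3D*, *CD3G* and *NCR1* had 0 counts in all samples. *CD74* alone stood at 392 ± 6.57 CPM in the Control samples and at 676 ± 29.3 in the treated ones (SD, n = 3 each).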

How the data were processed

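RNA-seq values of 3 Control and 3 WNK463 samples of MV4-11 cells were used. The authors deposited estimated counts per gene as whole numbers, without normalization, and TPM values per sample. The submitters' processing notes name GRCh38, fastp, Bowtie2, HISAT2, StringTie, RSEM, DESeq2 and edgeR without roles. The authors also deposited group means, a log2 fold change and p-values, which were not used. Groups and replicate numbers came from sample titles. In R 4.3.3, the quasi-likelihood test of edgeR 4.0.16 was run with TMM scaling after filterByExpr at a minimum count of 10, with Benjamini-Hochberg adjustment over 11973 genes. A standard error was derived from each fold change and its F statistic. Alternatives were DESeq2 1.42.0, limma 3.58.1 on log2(TPM + 1) and log2(TPM + 0.1), total counts, other filters, a replicate block, summed copies and each sample left out. The members and gene lists were chosen with earlier results of these data known. All members were named. Of each other list, up to 5 called genes with the smallest p were given values, with genes that did not pass where 5 or fewer, and markers at 1 CPM or more in a group. One gene that the rule would name is not reported here. Genes whose values go beyond that rule were chosen after their values were seen. Gene positions are from GENCODE 29. The test was tried on simulated counts with known changes.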

Additional observations from a re-analysis of the deposited data

How the results depend on the processing

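The number of members called was 4 in the edgeR fit and 3 to 5 in the alternatives. *HLA-DPA1* passed with scaling by total counts (0.48), limma on log2(TPM + 1) (0.65) and log2(TPM + 0.1) (0.72), and ranged from 0.21 to 0.51 with each sample left out. *HLA-DMA* turned positive with total counts (0.082) and on the same TPM scales (0.10 and 0.11), and without Control replicate 2 (0.044) or WNK463 replicate 1 (0.013). With each sample left out it ranged from -0.14 to 0.044, *HLA-DPB1* from -0.21 to 0.38 and *HLA-DRB1* from -0.29 to -0.17. The cause of these shifts was not tested. The log2 ratio of *HLA-DPA1* to *HLA-DRA* was -0.14 with counts in place of TPM, and a sample left out moved it between -0.10 and 0.27. Genes called lower numbered 2692 and 2678 with limma on log2(TPM + 1) and log2(TPM + 0.1), against 4222 with edgeR. With a log2 fold change of at least 1 in size, limma called 1155 genes with a pseudocount of 1, and 269 and 408 lower with pseudocounts of 1 and 0.1, against 1817 and 665 with edgeR. Requiring 10 counts in every sample gave 740 genes called higher with a log2 fold change of at least 1, against 1152, and 2 called macrophage markers against 6, since fewer genes were tested. Promoter factors called were 5 with either TPM scale against 8. B cell markers called were 1 with total counts, 4 without a filter, 1 with 10 counts in every sample, and 0 with either TPM scale, against 2, and 1 to 3 with a sample left out. Genes of the interferon γ route called were 5 to 7 with a sample left out, against 8.

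Deviations from the group means correlated at 0.02, -0.01 and -0.05 between samples sharing a number, so no shift shared across all genes was seen. This does not settle whether samples with the same number were handled as pairs. A fit with the replicate block gave 4 called members and 8398 called genes in all, and it changed no call of a member. *HLA-DPB1*, *HLA-DMB* and *HLA-DQA1* had 37 counts or fewer in every sample, which limits what can be seen for them.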

Other observations

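The 5 genes outside the list whose log2 CPM followed *HLA-DRA* most closely over the 6 samples were *ANAPC13*, *ZBTB37*, *SLC66A1*, *CNOT6L* and *MIGA1*, with Pearson's r of 0.999, 0.999, 0.998, 0.998 and 0.998. This is a description with no test, since the difference between the groups sets most of it, and 1543 genes outside the list had r above 0.95.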
